A study of Mus musculus with 4 samples.

Results

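Bipolar cells carry the signal of rods and cones to the inner retina. The 10 genes described here are Grm6, Trpm1, Nyx, Gpr179, Gng13 and Rgs11 of the glutamate response of ON bipolar cells, and Pcp2, Prkca, Cabp5 and Scgn, whose proteins mark bipolar types. They were taken by symbol from the 22558 gene symbols of the series. The whole-gene files (3 of 4) list all 10, and the day 1 DTA file lists 4 of them, Grm6, Gpr179, Prkca and Scgn, among its 5799 symbols.

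The samples were whole retinas of mice about 8 weeks old on a mixed C57BL/6 and 129 background, 1 library per group. The DTA groups, at day 1 and day 5 post-injury, had the genotype Msi1-CreERT2/+; R26R-DTA/+, a Cre driven from the Musashi 1 locus with a Cre-dependent diphtheria toxin A chain. Their controls at the same days were +/+; R26R-DTA/+, so all 4 groups carry the toxin allele and only the DTA groups carry Cre. The sources used here do not state which retinal cells Cre reached or how many mice entered a library. With no replicates there is no standard deviation and no test across samples, and a difference between libraries may be one between individual mice or dissections. In whole tissue, fewer bipolar cells and less of a transcript per cell cannot be told apart.

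In darkness, glutamate from photoreceptors holds mGluR6, the product of Grm6, active on ON bipolar dendrites. The receptor acts through a Go protein to close the cation channel TRPM1, and light, by stopping glutamate release, lets the channel open. Nyctalopin (Nyx) and GPR179 hold the channel and the shutoff enzymes at the dendritic tips, and loss of any of the genes for mGluR6, TRPM1, nyctalopin or GPR179 abolishes the ON response and causes stationary night blindness in people.

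Levels are given per length, as FPKM on build mm9: the fragments on each kilobase of a transcript, per 1000000 fragments of its library. Levels of different genes can therefore be compared, but only approximately, since differences between libraries also moved weakly with transcript length. Every member had a usable estimate wherever it was listed. The lowest values, taken to be 1 fragment each, gave an estimated 97.7 M (mega) fragments for DTA and 74.1 M fragments for control at day 1. At day 5 the estimates were 29.5 M fragments for DTA and 35.5 M fragments for control. The members then rest on an estimated 728 fragments (Rgs11, day 5 control) to 40277 fragments (Prkca, day 1 DTA). The 95% Poisson interval of a level ran from 7.13% below to 7.54% above it in the first case and from 0.974% below to 0.981% above it in the second. These intervals hold counting error only. Of 15 bipolar transcription factors and 14 type markers outside the 10 genes, the whole-gene files list all and the day 1 DTA file 6 and 2; none of those listed was at 0, which in whole retina does not measure how many bipolar cells a library holds. Lens and pigment epithelium transcripts varied widely between libraries: the 12 lens markers summed to 15.6 FPKM in day 5 DTA, 284 FPKM in the day 5 control and 2001 FPKM in the day 1 control.

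The members spanned a wide range of levels, from Pcp2 and Gng13 at the top to Nyx at the bottom. In the day 1 control the highest level, that of Pcp2, was 29.3 times that of Nyx. In day 5 DTA the highest, that of Gng13, was 14.9 times that of Nyx, and in the day 5 control Pcp2 was 20.6 times Nyx. Pcp2 and Gng13 together made up 52.4% of the summed FPKM of the 10 genes in day 5 DTA, against 55.3% in its control and 58.6% in that of day 1. Gpr179, Rgs11 and Nyx held the last places of the order in all 3 whole-gene libraries. The places between moved even between the controls: Cabp5 lay behind Trpm1, Prkca and Scgn in the control of day 5, and before these and Grm6 in that of day 1. The order of these genes is not separated by the spread between the controls.

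**Figure D1:**
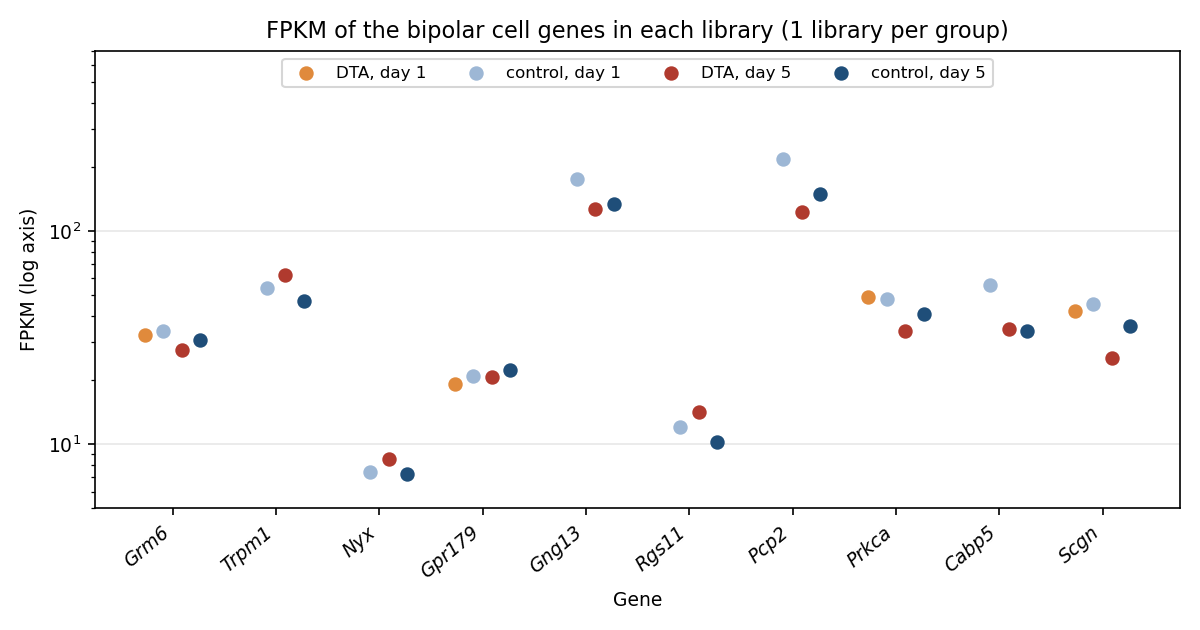
FPKM (log axis) of the 10 genes in each library, 1 point per library, with DTA left of its control. Pcp2 and Gng13 lie above 100 FPKM in every library that lists them and Nyx lies below 10 FPKM. Trpm1, Nyx and Rgs11 are highest in day 5 DTA, and Scgn, Prkca, Pcp2, Gng13 and Grm6 are lowest there.

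Sequences before the start sites are shown for the members with the largest differences, Cabp5 between the controls and Trpm1 and Scgn between DTA and control at day 5 (Rgs11 is named only). They are the 250 bases before each start annotated by RefSeq (GRCm38.p6), matched exactly and once to mm9, and are printed in the direction of transcription. Capitals mark TAATCC or its reverse complement GGATTA, the core read by the bipolar and photoreceptor factors CRX and OTX2, and CACGTG, the E-box form read by MITF and related factors. Trpm1 has a pair of annotated starts, the second lying 31624 bases downstream of the first, and its single gene-level value in the files covers 2 start identifiers. The windows are chr7:13983254-13983503 (plus strand) for Cabp5, chr7:71298471-71298720 and chr7:71330095-71330344 (plus strand) for Trpm1 and chr13:24083084-24083333 (minus strand) for Scgn.
Cabp5: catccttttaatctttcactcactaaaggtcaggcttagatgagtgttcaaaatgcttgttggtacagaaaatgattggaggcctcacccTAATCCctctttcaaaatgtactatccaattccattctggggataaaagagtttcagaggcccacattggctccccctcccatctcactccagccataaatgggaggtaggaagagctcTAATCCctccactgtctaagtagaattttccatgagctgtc
Trpm1, upstream start: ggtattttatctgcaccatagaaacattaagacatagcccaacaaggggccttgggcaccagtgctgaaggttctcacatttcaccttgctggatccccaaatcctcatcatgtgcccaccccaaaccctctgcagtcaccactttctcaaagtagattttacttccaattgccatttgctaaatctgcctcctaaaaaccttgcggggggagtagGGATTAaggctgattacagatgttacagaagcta
Trpm1, downstream start: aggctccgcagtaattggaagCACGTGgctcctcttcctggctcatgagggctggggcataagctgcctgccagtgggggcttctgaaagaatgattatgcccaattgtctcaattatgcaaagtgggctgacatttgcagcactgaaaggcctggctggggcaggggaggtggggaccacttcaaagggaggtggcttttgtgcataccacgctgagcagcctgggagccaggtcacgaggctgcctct
Scgn: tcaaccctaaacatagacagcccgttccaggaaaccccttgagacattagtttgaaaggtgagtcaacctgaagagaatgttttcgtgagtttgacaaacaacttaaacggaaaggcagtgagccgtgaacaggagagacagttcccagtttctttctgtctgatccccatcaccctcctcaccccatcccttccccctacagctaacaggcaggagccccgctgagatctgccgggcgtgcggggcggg
Cabp5 holds a pair of TAATCC cores, beginning 160 and 41 bases before the start, and the upstream Trpm1 window holds one GGATTA beginning 34 bases before it. The CACGTG of the downstream Trpm1 window begins 229 bases before that start. Scgn holds none of these letters. RefSeq windows were found for 9 of the 10 genes, 14 windows in all. Of these, 2 windows hold the CRX and OTX core, against 6.25% of 32851 windows of all genes, and 1 holds CACGTG, against 6.02%. The general E-box CANNTG, of which CACGTG is one form, stands in 11 windows, against 66.2%. Some windows of one gene overlap, and counted by gene it stands in 6 of the 9, against 69.3% of all genes. Both strands were searched. A match is a description of the letters and not a binding site.

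The comparison at day 5 asks how the bipolar genes stood once the injury had progressed. None of the 10 was called. A call asked for a difference in log2(FPKM + 1) of at least 1, at least 5 FPKM in one library and a difference larger than the gene's own between the controls, and 8.52% of 9883 genes passed it. No member reached even 1.5-fold, a size that 24.7% of these genes reached beyond their control difference. Members lay between -0.47 (Scgn) and 0.43 (Rgs11), DTA minus control, with 6 below 0, where 25.4% of all genes lay, and 4 above. Their median was -0.091, while the median of all 9883 genes was 0.26, so 8 of the 10 lay below the typical gene and only Trpm1 and Rgs11 above it. Median ratio scaling, by genes at 5 FPKM or more in all 4 libraries, takes out this general shift. The members' median was then -0.35, with 8 below 0. Without that scaling, their median against the day 1 control was -0.38, with 7 below 0. Of the 10 differences 7 were larger than the same gene's difference between the controls, as were 72.6% of all genes' differences.

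Grm6 encodes the receptor at the head of the cascade. Grm6 (chromosome 11, 50664187 to 50679710) had 32.6 FPKM in day 1 DTA, against 34.0 FPKM in the day 1 control, and 27.6 FPKM in day 5 DTA, against 30.9 FPKM in the day 5 control. The differences in log2(FPKM + 1), DTA minus control, were -0.058 at day 1 and -0.16 at day 5, and the controls differed by -0.13 (day 5 minus day 1). As deposited, day 5 DTA was the lowest of the 4 libraries, by little more than the step between the controls. After median ratio scaling the day 5 difference was -0.41 and the step between the controls -0.057. The day 1 sign turned to 0.073 against the day 5 control.

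Trpm1, the channel, had the second highest day 5 difference. Trpm1 (chromosome 7, 71298721 to 71414645) had 62.4 FPKM in day 5 DTA, against 47.1 FPKM in the day 5 control and 53.8 FPKM in the day 1 control. As deposited, the DTA library lay above both controls, with a difference of 0.40 at day 5 and of 0.21 against the day 1 control. The controls differed by -0.19. After median ratio scaling the day 5 difference was 0.14 and the step between the controls -0.11. TRPM1 is also made by pigment cells, whose 9 markers summed to 18.6 FPKM in day 5 DTA, 42.9 FPKM in the day 5 control and 166 FPKM in the day 1 control. Their part in the Trpm1 levels was not tested. Mir211, a microRNA inside Trpm1, was listed at 10.5 FPKM in day 5 DTA and at 0 in both controls; such short RNAs are poorly measured in an mRNA library.

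Nyx and Gpr179 encode proteins that place the channel and the shutoff enzymes. Nyx (chromosome X, 13044798 to 13066439) had 8.52 FPKM in day 5 DTA, against 7.23 FPKM in the day 5 control and 7.44 FPKM in the day 1 control. Its difference was 0.21 at day 5, and -0.023 after median ratio scaling, so its direction depends on the scaling. The controls differed by -0.036, the smallest step of the 10 in size. Xist, the RNA of the inactive X chromosome, was high in the day 5 control and near 0 in the day 1 control. Gpr179 (chromosome 11, 97193423 to 97213387) had 19.2 FPKM in day 1 DTA, against 20.9 FPKM in the day 1 control, and 20.6 FPKM in day 5 DTA, against 22.3 FPKM in the day 5 control. Gpr179 thus lay a little under its control in DTA at both days (-0.12 at day 1 and -0.11 at day 5). It was the one member whose controls differed upwards (day 5 minus day 1), by 0.090. Both DTA differences were larger in size than that step and far under the size asked of a call. After median ratio scaling they were -0.18 at day 1 and -0.36 at day 5, beside a step of 0.16.

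Gng13, Pcp2 and Rgs11 act on the Go protein: Gng13 encodes a gamma subunit of it, Pcp2 a modulator of its alpha subunit and Rgs11 an enzyme that speeds its shutoff. Gng13 (chromosome 17, 25854117 to 25856047) had 127 FPKM in day 5 DTA, against 133 FPKM in the day 5 control and 175 FPKM in the day 1 control. Its difference of -0.072 at day 5 was small beside the step of -0.39 between the controls, and the counting interval of its ratio included no change. Pcp2 (chromosome 8, 3623371 to 3625545) had 123 FPKM in day 5 DTA, against 149 FPKM in the day 5 control and 218 FPKM in the day 1 control, a difference of -0.27 at day 5 beside a step of -0.55. After median ratio scaling the day 5 differences were -0.33 for Gng13 and -0.54 for Pcp2, beside steps of -0.31 and -0.47. Both genes overlap transcripts of the opposite strand, Chtf18 at 2.45 FPKM in day 5 DTA and 2.27 FPKM in the day 5 control for Gng13, and 2900053A13Rik at 15.3 FPKM in day 5 DTA and 11.3 FPKM in the day 5 control for Pcp2. The kit is not stated to keep strand, so fragments of such pairs cannot be told apart. Rgs11 (chromosome 17, 26339907 to 26348269) had 14.1 FPKM in day 5 DTA, against 10.2 FPKM in the day 5 control and 12.0 FPKM in the day 1 control. Its difference of 0.43 was the highest of the 10, it was 0.22 against the day 1 control, and the controls differed by -0.22. After median ratio scaling the Rgs11 difference at day 5 was 0.19, beside a step of -0.15.

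Among the marker genes, Prkca encodes protein kinase C alpha, the usual stain for rod bipolar cells. Prkca (chromosome 11, 107794701 to 108205202) had 49.0 FPKM in day 1 DTA, against 48.2 FPKM in the day 1 control, and 33.8 FPKM in day 5 DTA, against 40.6 FPKM in the day 5 control. The differences were 0.023 at day 1 and -0.26 at day 5, with a step of -0.24 between the controls. After median ratio scaling they were -0.034 at day 1 and -0.51 at day 5, beside a step of -0.17. Cabp5, a calcium-binding protein of rod bipolar and some cone bipolar types (chromosome 7, 13983504 to 13994227), had 34.5 FPKM in day 5 DTA, against 33.9 FPKM in the day 5 control and 55.7 FPKM in the day 1 control. Its day 5 difference was 0.028, within the counting interval (-0.23 after median ratio scaling), and its step between the controls, -0.70, was the largest in size of the 10. Against the day 1 control the same DTA library would stand at -0.68. Scgn, secretagogin, a calcium-binding protein of cone bipolar types (chromosome 13, 24045326 to 24083083), had 42.1 FPKM in day 1 DTA, against 45.4 FPKM in the day 1 control, and 25.5 FPKM in day 5 DTA, against 35.7 FPKM in the day 5 control. Its difference was -0.11 at day 1 and -0.47 at day 5, the lowest of the 10. The day 5 DTA library was the lowest of the 4, at 71.4% of its control, while the controls differed by -0.34. After median ratio scaling the Scgn difference at day 5 was -0.73, beside a step of -0.26. The day 1 sign of Scgn turned to 0.23 against the day 5 control.

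**Figure D2:**
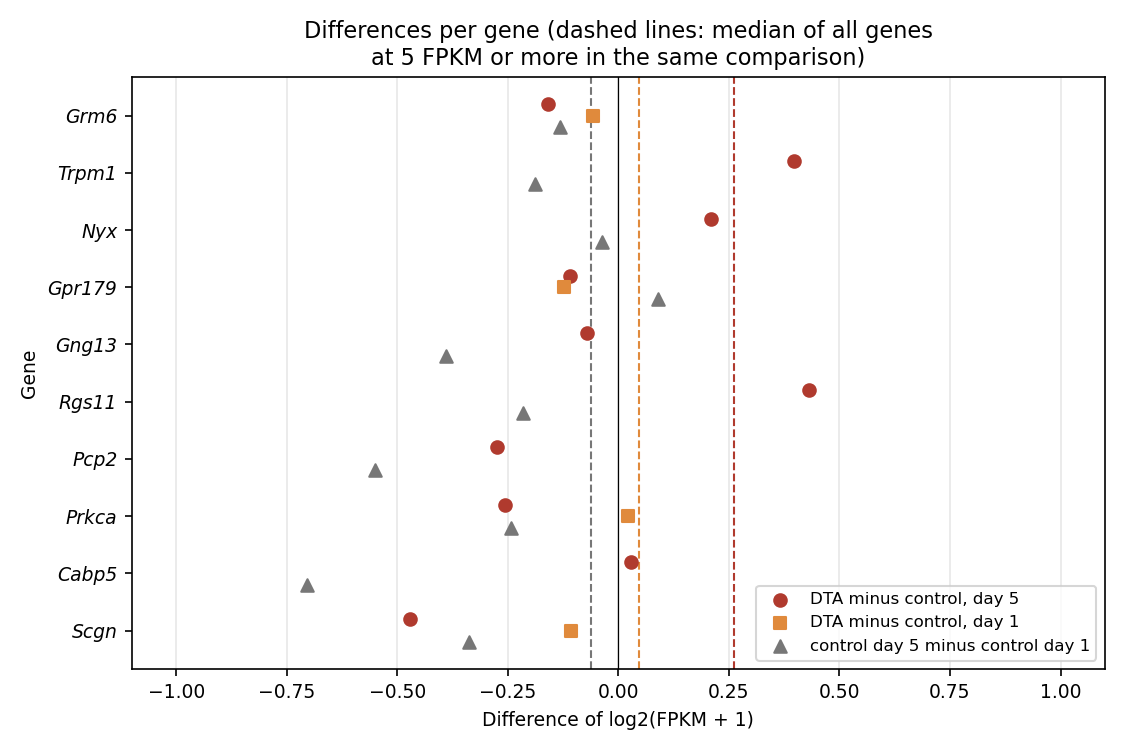
Difference of log2(FPKM + 1) for each gene: DTA minus control at day 5 (red circles), DTA minus control at day 1 (orange squares, 4 genes) and the day 5 control minus the day 1 control (grey triangles). Dashed lines in the same colours are the medians of all genes at 5 FPKM or more, 0.26, 0.046 and -0.062; no symbol reaches 1 in size, and 8 of the 10 red circles lie left of the red line.

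The day 1 comparison asks what stood apart soon after the injury, and covers Grm6, Gpr179, Prkca and Scgn. None of these 4 was called, where 2.67% of 2623 genes were. Their differences lay between -0.12 (Gpr179) and 0.023 (Prkca) with a median of -0.083, while the median of all genes was 0.046. Of the 4, 1 (Gpr179) differed by more than its controls did, against 46% of all genes. Against the day 5 control the median turned to 0.15, so the direction at day 1 depends on which control is used. Over 6 lens markers in this file, the sum was 1717 FPKM in day 1 DTA and 942 FPKM in the day 1 control, and over 2 pigment epithelium markers it was 30.9 FPKM in day 1 DTA and 52.6 FPKM in the day 1 control; the part of such carried tissue in these small differences was not tested.

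From day 1 to day 5 the same 4 genes can also be followed within the DTA retinas. The day 5 DTA library had 108 FPKM summed over the 4, against 143 FPKM in day 1 DTA. The control libraries had 129.6 FPKM at day 5, against 149 FPKM at day 1. Scgn was at 60.6% of its day 1 DTA level in day 5 DTA and Prkca at 69.0%, differences of -0.70 and -0.52, and Grm6 differed by -0.23. Scgn alone was beyond 1.5-fold and beyond its control difference, as were 12.6% of genes. Gpr179 differed by 0.10 (-0.021 after median ratio scaling). None was called, where 5.51% of 2724 genes were, but all 4 differences were larger in size than those between the controls, as were 64.8% of all genes' differences. Their median was -0.38, beside 0.14 for all genes. Markers of other tissue moved with this step as well. The 6 lens markers listed in all files summed to 4.45 FPKM in day 5 DTA and 1717 FPKM in day 1 DTA. The 2 pigment epithelium markers summed to 4.69 FPKM and 30.9 FPKM in the same order. Within the retina, Glul, a Müller glia enzyme, stood at 159 FPKM in day 5 DTA and 550 FPKM in day 1 DTA. The part of these tissues and cells in the members' step was not tested. Taking the day 1 difference from the day 5 difference gave -0.36 for Scgn, -0.28 for Prkca, -0.10 for Grm6 and 0.012 for Gpr179 (-0.19 after median ratio scaling). None of these was called, where 5.55% of 2777 genes were, and they share the control libraries with the comparisons above.

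The controls, which have one genotype, give the only measure of spread. They differed in sex-linked RNAs as female and male mice do: Xist was at 53.7 FPKM in the day 5 control and 0.00596 FPKM in the day 1 control, and of the Y chromosome genes Ddx3y was at 0.175 FPKM and 15.6 FPKM in the same order, while Eif2s3y was listed at 0 in the day 5 control and at 19.1 FPKM in the day 1 control. The DTA library of day 5 resembled its own control, with 60.4 FPKM of Xist and 0.275 FPKM of Ddx3y, and the day 1 DTA file lists none of these genes. Each difference between the controls, and each day 5 DTA value set against the day 1 control, therefore also crosses sex, and sex and day cannot be told apart. Between them (day 5 minus day 1), 9 of the 10 members lay below 0, as did 60.9% of 9321 genes. The members' median was -0.23, beside -0.062 for all genes. No member reached a difference of 1, as 2.57% of genes did, and 1 member, Cabp5, was beyond 1.5-fold, as were 5.1% of genes. After median ratio scaling the median was -0.16, with 8 below 0. The step moved with transcript length. The 5 members with the shortest coding transcripts, Pcp2 (524 bases), Gng13 (719), Scgn (1412), Cabp5 (1777) and Rgs11 (2006), differed by -0.55, -0.39, -0.34, -0.70 and -0.22. The 5 longer ones, from Grm6 (4330) to Gpr179 (9219), lay between -0.24 and 0.090. Over all genes at the floor with a known length (94.6%), the median difference was -0.14 under 1000 bases, -0.11 between 1000 and 2000 bases, -0.054 between 2000 and 4000 bases, -0.030 between 4000 and 8000 bases and -0.031 above that, and the correlation across genes was weak (Spearman's rho 0.17). Lens markers, at 284 FPKM in the day 5 control and 2001 FPKM in the day 1 control, and pigment epithelium markers, at 42.9 FPKM and 166 FPKM in the same libraries, also moved with this step. The part of length or of carried tissue in the members' step was not tested.

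**Figure D3:**
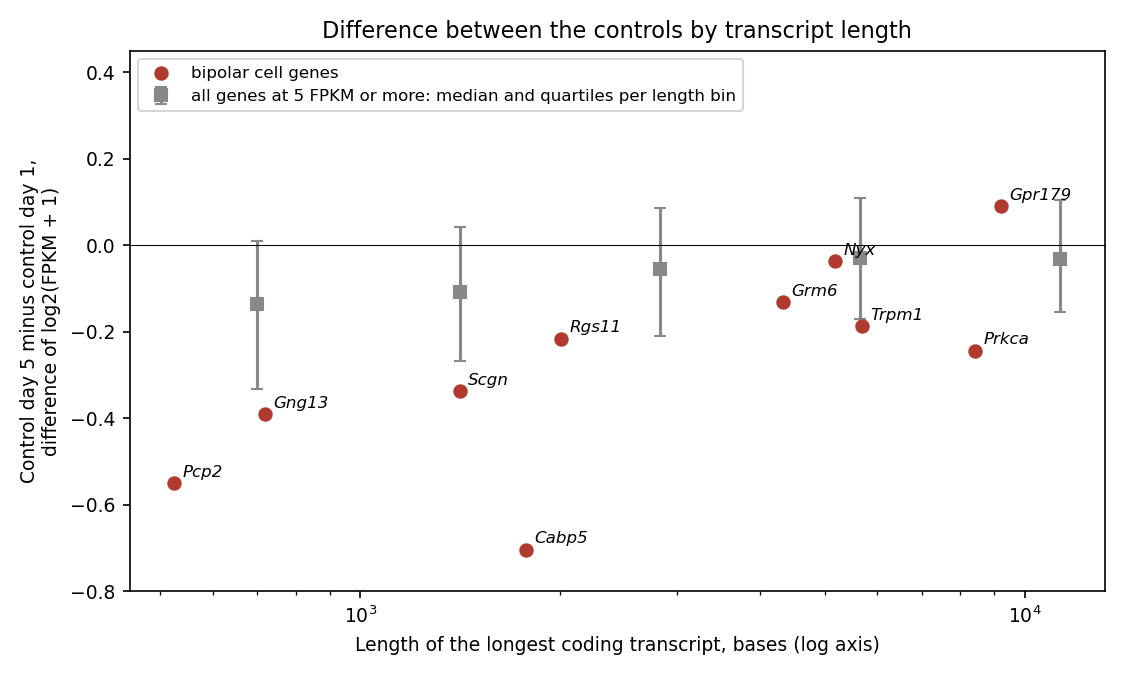
Day 5 control minus day 1 control, as a difference of log2(FPKM + 1), against the length of the longest coding transcript in bases (log axis). Red points are the 10 genes; grey squares with bars are medians and quartiles of all genes at 5 FPKM or more in 5 length bins, and the 4 lowest red points, between -0.70 and -0.34, are transcripts under 2000 bases.

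Of 8 further genes of the ON cascade (median -0.45 at day 5), 7 reached 5 FPKM and could be called. At day 5, 1 was called higher and 1 lower, where 8.52% of 9883 genes were called, 667 higher and 175 lower. The direction was not shared, and several of these genes are also made by photoreceptors. Gnb3, the beta subunit of the ON bipolar Go protein and of cone transducin, had 328 FPKM in day 5 DTA, against 107 FPKM in the day 5 control and 104 FPKM in the day 1 control, 3.06-fold higher. Its difference was 1.61, and between 1.34 and 1.66 under 7 alternative settings. Its partners in the same protein differed less. Gng13 differed by -0.072, and Gnao1, the alpha subunit, had 97.0 FPKM in day 5 DTA, against 101 FPKM in the day 5 control, a difference of -0.051. Rgs9bp, which anchors shutoff enzymes in photoreceptors and ON bipolar cells, had 59.4 FPKM in day 5 DTA, against 124 FPKM in the day 5 control, a difference of -1.04. That call ended with a pseudocount of 5 (-0.996). Gnb5, the beta subunit bound to these enzymes, had 194 FPKM in day 5 DTA, against 338 FPKM in the day 5 control (-0.80, and -1.06 after median ratio scaling, where it was called). Rgs7, the partner of Rgs11 in the shutoff, differed by 0.38 at day 5 (0.14 after median ratio scaling) and 0.13 at day 1. At day 5 it lay on the same side as Rgs11, which has no day 1 DTA value. Lrit3, a leucine-rich repeat protein needed at the same synapse, differed by -0.58, and Tpbg, a rod bipolar membrane protein, by -0.60. Cacna1s, a calcium channel subunit, differed by -0.31 at day 5 and 0.19 at day 1, but lay under 5 FPKM in every library.

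None of 15 transcription factors found in bipolar cells was called at day 5, where 8.52% of 9883 genes were, and their median was -0.020. Only the 12 of them that reached 5 FPKM could be called. The largest differences were those of Otx2 (-0.47), shared with photoreceptors, Sebox (-0.46), a homeobox factor, and Isl1 (0.37), which is needed for bipolar maturation. Isl1 had 26.0 FPKM in day 1 DTA, against 32.9 FPKM in the day 1 control, and 27.0 FPKM in day 5 DTA, against 20.8 FPKM in the day 5 control, so its controls (-0.64) differed by more than either comparison, and its sign turned when the other day's control was used (-0.27 at day 5 and 0.31 at day 1). Among 14 other type markers the median was 0.079, and 11 reached 5 FPKM. Of these, 1 was called higher and none lower. Kcng4, a potassium channel subunit of type 5 cone bipolar cells, had 14.4 FPKM in day 5 DTA, against 6.35 FPKM in the day 5 control and 6.79 FPKM in the day 1 control, 2.27-fold higher. That call ended with a pseudocount of 5 (0.77), with median ratio scaling (0.83), when scaled to the sum of genes other than photoreceptor and abundant ones (0.91) and against the day 1 control (0.98). Car8 differed by 0.73 (-0.093 against the day 1 control). Of 6 genes of bipolar inhibition and axon terminals, 1 was called lower (median 0.011), as were 175 of the 9883 genes. Slc17a7, the vesicular glutamate transporter of photoreceptor and bipolar terminals, had 266 FPKM in day 5 DTA, against 584 FPKM in the day 5 control, a difference of -1.13 (-0.93 against the day 1 control). Gabrr1 and Gabrr3, GABA receptor subunits of bipolar terminals, differed by -0.38 and 0.30.

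Markers of the other retinal cells differed from list to list at day 5. The list medians (DTA minus control) were -1.58 for the 9 measured of 10 rod genes, of which 6 were called lower, and -1.13 for 8 cone genes, of which 4 were. The median was -0.50 for 8 Müller glia genes, with 2 called lower. Amacrine (9 genes) had a median of -0.29, horizontal (5) -0.54 and ganglion cells (9) -0.11, beside -0.091 for the 10 bipolar genes. None of these was called, where 8.52% of 9883 genes were. However, only 7 of the amacrine, 2 of the horizontal and 8 of the ganglion cell genes reached the 5 FPKM that a call asks for. All 9 microglia and macrophage genes were called higher, with a median of 2.66. The rod genes summed to 5415 FPKM in day 5 DTA and 13003 FPKM in the day 5 control, and since FPKM share a fixed total, the part of this loss in the levels of all other genes was not tested beyond the scaling above.

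**Figure D4:**
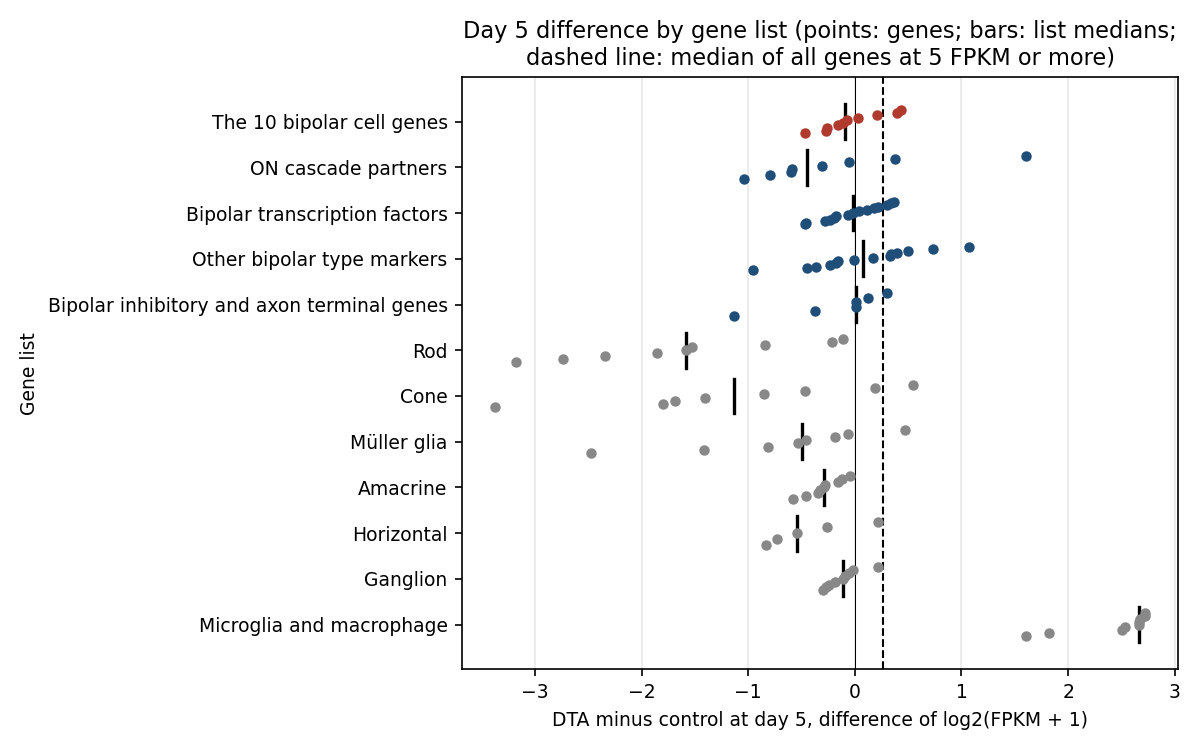
Day 5 DTA minus day 5 control, as a difference of log2(FPKM + 1), for each gene (points) of the bipolar lists (red and blue) and of other cell types (grey), with list medians as bars and the median of all genes, 0.26, as a dashed line. The 10 bipolar cell genes lie between -0.47 and 0.43, while 6 of the 9 rod genes lie below -1.

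Genes with a pattern like the members' mean over the 3 whole-gene libraries were common. The 5 nearest of 9056 were Impad1, Tbx2, Rap2c, Cntln and Six3, and 437 genes lay nearer to that mean than any member did. With 3 libraries such likeness says little about a gene. Tbx2 had 19.1 FPKM in day 5 DTA, 19.3 FPKM in the day 5 control and 23.4 FPKM in the day 1 control, and Six3 had 23.4 FPKM, 23.4 FPKM and 28.8 FPKM in the same order.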

How the data were processed

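Per the labels' protocols, retinal RNA was taken up in Sepazol and made into libraries with the Illumina mRNA-seq kit. The authors deposited FPKM per gene with confidence bounds and a status, per the file headers. Cufflinks 2.1.1, CASAVA 1.8.2, bcl2fastq 1.8.4 and mm9 are named in the submitters' processing notes. Aligner and gene annotation: not given in the sources used here. Rows with status FAIL (7 to 25 per file) or HIDATA (0 or 1) were read as missing; no member was among them. FPKM of repeated symbols were summed. The day 1 DTA file holds chromosomes 1 and 10 to 13 and part of 14, and its FPKM were assumed to be scaled to the whole library. The authors' bounds were used in one alternative only, since for 2 of 10 to 5 of 10 members in the whole-gene files, and 3 of 4 in the day 1 DTA file, the upper bound lies below the FPKM.

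Differences were taken on log2(FPKM + 1), which understates those of low genes, in Python 3.11.15 with pandas 2.3.3. A gene was called at a difference of 1, with 5 FPKM in one library and, except between the controls, a difference larger than that of the controls. The calling was run on simulated data with known changes larger than the size rule and counting noise only. That run checks the working of the rule and cannot measure false calls from the spread between mice. Starts have 1 added. Depth was estimated by taking the mode of the lowest products of FPKM and transcript length (GENCODE vM1, genes with 1 transcript over 1500 bases) as 1 fragment, and is approximate. The members, the gene lists and the rules were chosen with earlier results of these data known. Named were the 10 members, all cascade partners, up to 3 genes of each other bipolar list with the largest day 5 difference and any called one, and the 5 genes of nearest pattern. A gene and a motif that these rules select are not reported here. Alternatives were pseudocounts of 0.1 and 5, no floor or one of 1 FPKM, a size of 1.5-fold, 2 scalings, rows of low data left out, the other control or the mean of both, no rule on the controls, and non-overlapping bounds.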

Additional observations from a re-analysis of the deposited data

Results flagged for a closer look

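One gene of the 4 listed at both days differed in direction between them. The difference of Prkca in log2(FPKM + 1), DTA minus control, was 0.023 at day 1 and -0.26 at day 5. Each rests on 1 library per group and the difference between the days was not tested. As deposited, the controls differed by -0.24. Under median ratio scaling the day 1 value lay below 0 (-0.034), the day 5 value was -0.51 and the controls differed by -0.17.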

How the results depend on the processing

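No paired analysis was possible because each group has 1 library, and for the same reason no library could be left out of a group. None of the 10 members was called at day 5 and none of the 4 at day 1 under any alternative, and none in the difference between the days. With the size set to 1.5-fold, 1 member (Cabp5) was called between the controls and 1 (Scgn) between the DTA libraries, in place of 0 each. The members' day 5 median of -0.091 was -0.35 with median ratios and -0.38 with the day 1 control, and lay between -0.26 and -0.081 under the others. Their day 1 median of -0.083 was 0.15 against the day 5 control and 0.029 against the mean of both controls. The median ratio moved the median of all genes at day 5 to 0.0088, from 0.26 as deposited, and the share of calls that were higher to 61.2% (412 higher, 261 lower), from 79.2% (667 higher, 175 lower). After scaling to the sum of genes other than photoreceptor and abundant ones, day 5 calls were 477 higher and 230 lower. Both scalings rest only on genes listed in all 4 libraries, so on the part of the genome held by day 1 DTA. The photoreceptor genes taken out there were 2 of the 10 listed rod genes and 1 of the 8 listed cone genes. Of the differences between the days, 65 were higher and 87 lower with the median ratio, in place of 84 and 70. Counts over all genes moved most with the size set to 1.5-fold: 2445 in place of 842 at day 5, 143 in place of 70 at day 1, 475 in place of 240 between the controls, 343 in place of 150 between the DTA libraries and 415 in place of 154 between the days. With a pseudocount of 5 they were 472 at day 5 and 46 at day 1, and with non-overlapping bounds 95 between the controls. Cabp5 at day 5, Nyx at day 5 and between the controls, Prkca, Grm6 and Scgn at day 1 and Gpr179 between the days changed sign under at least 1 alternative, always from a small difference; the other members kept theirs. Estimated counting error was under 8% for every level, and the spread between mice is unknown.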
